A study of Mus musculus with 9 samples.

Results

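The cytosolic ribosome is built from ribosomal RNA and ribosomal proteins, named Rps for the small (40S) subunit and Rpl for the large (60S) subunit. The probes for these proteins were taken by gene symbol: every probe whose symbol on the array platform begins with Rpl or Rps followed by a digit, or is Rplp0, Rplp1, Rplp2 or Rpsa, without the Rps6k kinases and without pseudogenes. This found 96 probes of 65 genes, of 45281 probes on the array. Probes had to be detected (a detection p under 0.05) by 3 arrays or more of the 9, which kept 76 probes of 56 genes, of 13641 probes kept in all. Rps19bp1, which encodes a binding protein of Rps19 and had 1 kept probe, and Rps23rg1, a retroposed relative of Rps23 whose probes were not kept, entered through their symbols although neither is a ribosomal protein. No probe was kept for Rpl6, Rpl14, Rpl17, Rpl39l, Rps4l, Rps20, Rps23, Rps23rg1 or Rpsa. Just outside the limit lay 1 probe each of Rpl4, Rpl6, Rpl7l1, Rpl23 and Rps4l, detected on 2 arrays, and just inside it a Rpl37 probe detected on 3. Of the kept probes 70 were detected on all 9 arrays, 5 on only 1 or 2 of the Luc arrays and 1 on no Luc array.

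The arrays measured total RNA of mouse leukemia stem cells, the cells of a leukemia that can pass it on to a new host. All 9 samples came from C57BL/6 mice of the Actin-dsRed genotype, carried the MLL-AF9 oncogene and were sorted from bone marrow of quaternary transplant leukemic mice as Hoechst low, dsRed+, c-kit hi, CD34+ and FcyRII hi cells. The control group of 3 samples carried a hairpin RNA against luciferase (Luc), and 2 further groups of 3 samples each carried hairpin 94 or hairpin 97 against Csnk1a1, the gene of casein kinase 1 alpha. The comparisons ask how these transcripts differed between knockdown and control cells and between the hairpins. The labels name no separate mice or cultures for the samples of a group, so the p-values measure only the spread between these samples, which may be technical.

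Many mRNAs of ribosomal proteins begin with a tract of pyrimidines (a TOP tract), through which the mTOR kinase and the protein LARP1 set how much of them is translated. Their genes are among the most strongly transcribed in dividing cells and are raised together by MYC. When ribosome assembly fails, free ribosomal proteins, led by RPL5 and RPL11, bind MDM2 and keep it from marking p53 for destruction. This is the link to the present cells, because casein kinase 1 alpha also restrains p53, and the series title names p53-dependent killing. Loss of 1 copy of single ribosomal protein genes causes human Diamond-Blackfan anemia.

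The groups differed in brightness. Luc arrays detected 9262 to 10347 probes, hairpin 94 arrays 13053 to 14280 and hairpin 97 arrays 12969 to 14168. The Csnk1a1 probe was detected on 0 of the 9 arrays, so the knockdown could not be checked. Of 11 genes listed for the sorted leukemia cells, 10 were detected, and no probe of Ptprc, the leukocyte antigen CD45, was. The probe of Cd34, a marker used in the sort, was detected on 4 arrays, 0 of them Luc arrays. Of 6 erythroid genes 0 were detected, and of the B cell and the T and NK cell lists 1 of 5 genes each, without the defining Cd3d, Cd3e, Cd3g, Ebf1 or Pax5. Array brightness and knockdown cannot be told apart in the comparisons with Luc, and changes below are given after quantile normalization, that is relative to the array as a whole.

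The ribosomal protein probes were bright on every array. Before normalization their median signal was 817.5, 865.3 and 989.5 units on the Luc arrays. It was 2987, 3809 and 3420 on the hairpin 94 arrays and 3869, 3227 and 3534 on the hairpin 97 arrays. All 6 knockdown arrays therefore lay above all 3 Luc arrays. The ratio of the raw signals, knockdown over Luc, had a median of 2.7 over the members, against 1.26 over all tested probes. Bright probes as a whole had higher ratios: among the brightest 20% of all probes the median ratio was 2.16, and 2.95 for the 58 members in it. In raw signal 68 of the 76 members were higher on all 6 knockdown arrays than on all 3 Luc arrays, as were 60.4% of all tested probes. Among the brightest 20% this held for 57 of 58 members and for 92.9% of all probes.

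After normalization the median over the members was 10.7, 10.68 and 10.72 on the log2 scale on the Luc arrays. It was 11.46, 11.31 and 11.33 with hairpin 94 and 11.34, 11.45 and 11.43 with hairpin 97. The groups did not overlap, and the spread of this median within groups was 0.058 (pooled SD). Probe by probe the shift was smaller, with a median log2 fold change of 0.26 over the members for both hairpins against Luc, against 0.11 over all probes tested. Whether cells held more of these RNAs or more cells of another kind were sorted cannot be told apart in bulk RNA.

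**Figure D1:**
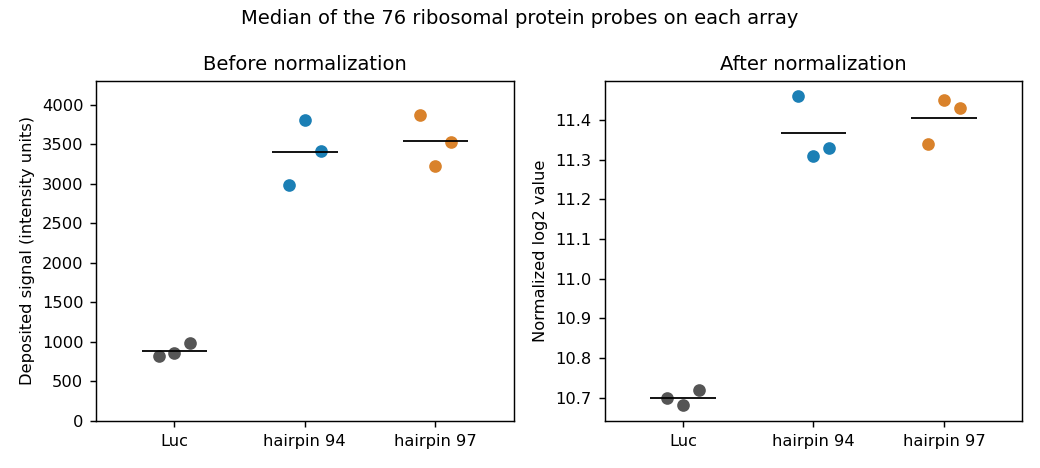
Median of the 76 ribosomal protein probes on each of the 9 arrays, as raw signal and after normalization on the log2 scale; each point is 1 array. The raw medians run from 817.5 to 989.5 for Luc and from 2987 to 3869 with knockdown.

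Ribosomal protein transcripts differed from Luc in both directions after quantile normalization, and upwards at more probes than downwards. With both hairpins against Luc, 30 of 76 probes rose and 11 fell at an adjusted p under 0.05, by limma with Benjamini-Hochberg adjustment over all 13641 probes, and 35 passed in neither direction. Of all probes tested, 40.2% were called in either direction, 25% as higher and 15.2% as lower, so the share of members called higher (39.5%) was above that background and the share called lower (14.5%) was close to it. Among the 70 members detected on all 9 arrays 29 rose, or 41.4%, against 22% of all such probes, and 11 fell, or 15.7%, against 25.9%. Among the brightest 20%, 27 of 58 members rose, or 46.6%, against 27.8% of all probes there, and 6 fell, or 10.3%, against 27.4%. These shares are a description of the list and were not tested.

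The falls are relative to the array as a whole. In raw signal every member called lower was at or above its Luc level, with ratios of 1.02 to 1.94, and with median scaling over all probes, which moves the median of all probes from 0.11 to 0.88, 71 members were called higher and 0 lower, against 72.9% and 0.103% of all probes. With median scaling over commonly detected probes (those seen by every array), which moves the median of all probes to -0.55, 27 were called higher and 21 lower, against 11.2% and 60.4% of all probes. Each of the largest falls named below kept its call under this scaling. The members' median stood 0.716 above that of all probes under either scaling and 0.149 above it after quantile normalization. Both scalings shift all probes of an array by the same amount, so the gap of 0.716 is the same under both by construction. It is not matched for brightness. With each array's detected-probe count as covariate, 0 members were called in either direction by limma, as were 0 of all probes, and 13 of 76 had an unadjusted p under 0.05, or 17.1% of members against 10.2% of all probes.

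**Figure D2:**
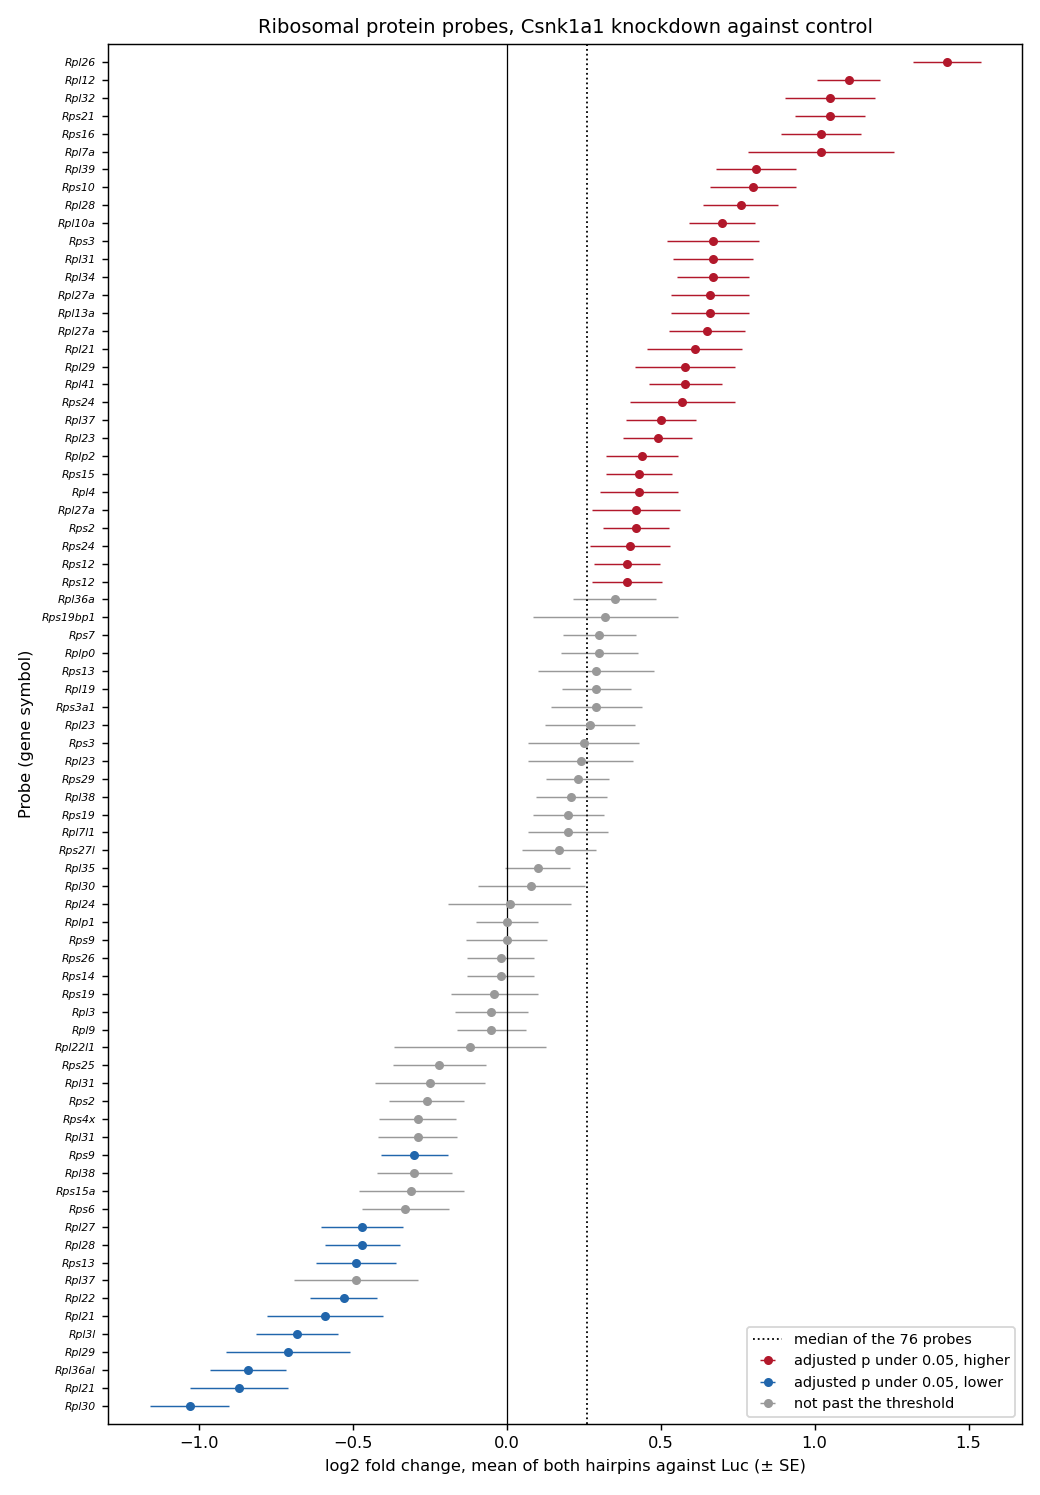
Log2 fold change of each ribosomal protein probe with both hairpins against Luc, with its standard error, ordered by size and marked by call at an adjusted p under 0.05 (limma). The values run from -1.03 (Rpl30) to 1.43 (Rpl26); with median scaling over all probes none was called lower.

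Rpl26 rose most. It is a 60S protein at the exit of the peptide tunnel, and in human cells it also binds the mRNA of p53 and raises its translation. Its normalized level was 9.46, 9.43 and 9.64 on the Luc arrays, 10.9, 10.91 and 10.99 with hairpin 94 and 10.87, 10.96 and 11.03 with hairpin 97. The groups were more than 1 log2 unit apart, while arrays of a group differed by much less. This is a log2 fold change of 1.43, or 2.7-fold (SE 0.11, adjusted p = 6.946e-05 by limma). The gene lies at chr11:68901566-68904534 (GRCm38.p6).

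Rpl12, at chr2:32961712-32964045, is the 60S protein at the base of the stalk, the arm that recruits translation factors. Its level was 10.87, 10.89 and 10.89 on Luc arrays and 11.93 to 12.03 on the 6 knockdown arrays, with little spread in any group. The log2 fold change was 1.11 (SE 0.102, adjusted p = 0.0001131 by limma). Rps21, a 40S protein encoded at chr2:180257379-180258444, was at 10.74, 10.52 and 10.61 on Luc arrays, at 11.77, 11.56 and 11.49 with hairpin 94 and at 11.7, 11.76 and 11.76 with hairpin 97. Its log2 fold change was 1.05 (SE 0.115, adjusted p = 0.0001627 by limma). Rpl32, a 60S protein encoded at chr6:115805514-115808743, varied more. It was at 10.58, 10.29 and 10.68 on Luc arrays, 11.93, 11.44 and 11.8 with hairpin 94 and 11.32, 11.4 and 11.53 with hairpin 97, which did not overlap Luc (1.05, SE 0.145).

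Rps16, a 40S protein whose tail reaches the transfer RNA in the P site, was at 10.69, 10.43 and 10.83 on Luc arrays, while the 6 knockdown arrays ran from 11.51 to 11.85 (log2 fold change 1.02, SE 0.13). Rpl7a, a 60S protein, rose by the same 1.02 with a larger error (SE 0.237, adjusted p = 0.006602 by limma). Its Luc arrays spread from 8.35 to 9.16 and its knockdown arrays from 9.34 to 10.28, so the gap between the groups was smaller than the spread within either. These 6 probes, of Rpl26, Rpl12, Rpl32, Rps21, Rpl7a and Rps16, were the members called higher by 2-fold or more.

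The next rises were in Rpl39, a short protein lining the exit tunnel (0.81), Rps10, a 40S head protein (0.80), Rpl28 (0.76) and Rpl10a, the protein of the mobile L1 stalk (0.70). Rps10 was at 10.05, 9.98 and 10.33 on Luc arrays, at 11.13, 11.01 and 11.22 with hairpin 94 and at 10.65, 10.98 and 10.53 with hairpin 97. The hairpin 94 arrays were thus all above the hairpin 97 arrays, and both were above Luc. The difference of hairpin 97 from hairpin 94 (-0.4, adjusted p = 0.5178 by limma) did not pass. All 6 knockdown arrays lay above all 3 Luc arrays for 33 members (43.4%), against 21.5% of all probes, and for 28 of the 30 called higher. Of these 30, 23 were also called with each hairpin alone.

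All 6 knockdown arrays lay below all 3 Luc arrays for 10 members (13.2%), against 12.6% of all probes, and for 8 of the 11 called lower, of which 5 were called with each hairpin alone. Rpl30, a 60S protein at a bridge between the subunits, had the deepest fall, at 1 of its 2 probes. That probe was at 10.43, 10.58 and 10.26 on Luc arrays, at 9.2, 9.53 and 9.29 with hairpin 94 and at 9.58, 9.4 and 9.35 with hairpin 97, a log2 fold change of -1.03 (SE 0.129, adjusted p = 0.0002943 by limma) that turned to 0.325 with median scaling over all probes. The other Rpl30 probe gave 0.08 (SE 0.174) and did not pass, so the fall rests on 1 probe of the gene at chr15:34440505-34443276.

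Rpl36al, a paralog of Rpl36a encoded at chr12:69182734-69184067, was at 13.14, 13.29 and 13.03 with Luc, and the 6 knockdown arrays ran from 12.09 to 12.46. The groups were clearly apart, with a log2 fold change of -0.84 (SE 0.123), or 0.508 with median scaling over all probes. Rpl36a itself gave 0.35 (SE 0.136, adjusted p = 0.06264 by limma) and did not pass. Rpl22, a 60S protein at chr4:152324436-152334082 that is dispensable for translation but needed for T lymphocyte development in the mouse, was at 9.07, 8.99 and 8.96 with Luc and at 8.35 to 8.57 with knockdown. Its log2 fold change was -0.53 (SE 0.109), or 0.88 with median scaling over all probes. Its paralog Rpl22l1, which rises in mice that lack Rpl22, gave -0.12 (SE 0.247) from a probe detected on 8 of 9 arrays and did not pass.

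Smaller falls were seen for 1 probe each of Rps13 (-0.49), Rpl28 (-0.47), Rpl27 (-0.47) and Rps9 (-0.30). With median scaling over all probes they turned to 0.966, 0.609, 0.814 and 0.853. Rps9, a 40S protein, was at 13.61, 13.64 and 13.64 with Luc and at 13.21 to 13.42 with knockdown. Its adjusted p of 0.0495 (limma) rose to between 0.05715 and 0.1041 when any 1 of the 9 arrays was left out. Rpl27 lost its call without Luc array 1 or Luc array 3, and Rps13 without Luc array 2. The other Rps13 probe gave 0.29 and the other Rps9 probe 0.00, and neither passed.

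The start sites of some of these genes are shown because the TOP tract lies there. Each line gives 30 bases of the RefSeq sequence (GRCm38.p6), 5′ to 3′ on the strand of the gene, from 10 bases before to 20 after the annotated start, with the longest run of C and T bases within 25 bases of the start in capitals as far as it falls in the window. The first 6 genes had a probe called higher and no probe called lower.
Rpl26: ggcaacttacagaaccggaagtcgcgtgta
Rpl12: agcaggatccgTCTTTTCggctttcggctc
Rps21: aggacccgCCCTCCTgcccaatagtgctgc
Rpl7a: CTCTTCTTTCTTTCTCCagcagccgagcaa
Rps10: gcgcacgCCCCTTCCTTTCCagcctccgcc
Rps16: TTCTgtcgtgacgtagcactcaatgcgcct
The next 5 had a probe called lower and no probe called higher.
Rpl36al: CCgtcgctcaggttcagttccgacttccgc
Rpl22: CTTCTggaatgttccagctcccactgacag
Rpl27: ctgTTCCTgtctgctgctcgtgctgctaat
Rps13: caaacgtcggtgagtggcgtcaCTTCCTgt
Rps9: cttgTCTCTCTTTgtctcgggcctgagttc
In the order shown, the first 6 lie at chr11:68901556-68901585, chr2:32961702-32961731, chr2:180257369-180257398, chr2:26910797-26910826, chr17:27635225-27635254 and chr7:28350679-28350708, all on the plus strand but that of Rps10. The others lie at chr12:69184048-69184077, chr4:152324426-152324455, chr11:101442235-101442264, chr7:116334171-116334200 and chr7:3704031-3704060, with Rpl36al and Rps13 on the minus strand.

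The longest run had 21 bases in Rpl7a, 13 in Rps10 and 7 in Rpl12 and Rps21. In Rpl26, which rose most, it had 4 and lay before the bases shown. It had 5 bases in Rps16, which also rose. Rpl39 and Rpl10a, which also rose and are not shown, had 9 and 8. Among the genes called lower it had 5 bases in Rpl36al, Rpl22 and Rpl27, 6 in Rps13 and 9 in Rps9. Short runs were thus found on both sides. Of the lower genes shown, only Rps9 had a run of at least 8, and its call was lost when any 1 array was left out. Of the 56 member genes 48 had a start window, and 23 of them (47.9%) had a run of at least 8 C or T bases within 25 bases of the start, against 22.3% of all 27025 genes with a window. By call, the run was found in 12 of 22 genes with only higher probes called, in 1 of 6 with only lower probes called and in 9 of 19 with neither. A tract in the strict sense, a C at the start followed by 4 C or T bases, was found at 8 of 48 members (16.7%) and 3.01% of all genes, and it depends on the annotated start being exact to the base. The letters CCGGAAG, bound by ETS factors, or their reverse complement, which can overlap a pyrimidine run, were found in the 300 bases around the start in 20 of 48 members (41.7%) and 9.93% of all genes. They were in 11 of 22 genes with only higher calls, in 0 of 6 with only lower calls and in 9 of 19 with neither. These counts are a description of letters, with few genes in the group of lower calls.

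Both subunits had probes in each direction. Of the 40S subunit 20 genes with 27 probes were measured, of which 10 probes rose and 2 fell, against 25% and 15.2% of all probes. The median log2 fold change was 0.25, with a range of -0.49 to 1.05. Besides Rps21, Rps16 and Rps10, the 40S rises included Rps3, which sits where the mRNA enters (0.67 and, not passing, 0.25 at its other probe), and Rps15 in the head (0.43, SE 0.107). Rps6, the substrate of the S6 kinases that is used as a readout of mTOR activity, gave -0.33 (SE 0.141, adjusted p = 0.0877 by limma) and did not pass. Rps14, which is lost together with CSNK1A1 in a human myelodysplastic syndrome, was at -0.02 (SE 0.108, adjusted p = 0.8992 by limma).

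Of the 60S subunit 30 genes with 43 probes were measured, of which 20 probes rose and 7 fell, against 25% and 15.2% of all probes. The share that fell was close to that of all probes. The median was 0.30, with a range of -1.03 to 1.43. Rises beyond those above were found in Rpl34 (0.67), Rpl13a, which in human cells also silences inflammatory mRNAs (0.66), Rpl41, the shortest ribosomal protein (0.58), and Rpl4 (0.43). Rpl3, at the peptidyl transferase center, gave -0.05 (SE 0.119), Rpl9 -0.05 (SE 0.112) and Rpl35 0.10 (SE 0.106), and none of them passed. Rpl38, which is needed for translation of Hox mRNAs in the mouse embryo, gave 0.21 and -0.30 at its 2 probes, neither of which passed.

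Of the stalk list, 2 of 4 genes, each with 1 probe, rose and 0 fell, against 25% and 15.2% of all probes. Rpl12 is described above, and Rplp2, a subunit of the acidic stalk dimers, rose by 0.44 (SE 0.117, adjusted p = 0.01219 by limma). Rplp0, to which these dimers bind, gave 0.30 (adjusted p = 0.07684 by limma). The Rplp1 probe had the highest signal of all probes on all 9 arrays, and quantile normalization gives such a probe the same value on each array, here 14.44, so its log2 fold change of 0 is fixed by the method. Its raw signal ratio was 1.46.

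Among the transcripts of MDM2 binders 5 of 14 probes, from 10 measured genes, rose with both hairpins and 0 fell, against 25% and 15.2% of all probes, with a median of 0.26, the same as over all member probes. The genes with a rise were Rpl26, Rps3, Rpl37 (0.50, SE 0.113, with -0.49 at its other, dim probe, which did not pass), Rpl23 (0.49 at 1 of 3 probes, with 0.27 and 0.24 at the others) and Rps15. Rps7 (0.30), Rps27l (0.17), Rps14 (-0.02), Rps26 (-0.02) and Rps25 (-0.22) did not pass. Rps27l is encoded by a gene that p53 activates, and it was at 12.12 on Luc arrays on average, with an adjusted p of 0.2801 by limma. With hairpin 97 alone Rps25 fell by 0.51 (adjusted p = 0.04609 by limma), with 0.06 for hairpin 94. Rpl5 and Rpl11, the best known members, were not analysed here.

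Of the genes mutated in human Diamond-Blackfan anemia 10 were measured with 14 probes, of which 5 rose and 1 fell, against 25% and 15.2% of all probes, with a median of 0.21. The rises were in Rpl26, Rps10, both probes of Rps24 (0.57 and 0.40) and 1 of 3 Rpl31 probes (0.67), and the fall was in Rpl27. The other Rpl31 probes gave -0.29 and -0.25 and did not pass, and the former passed as lower with hairpin 97 alone (-0.43, adjusted p = 0.04687 by limma). Rps19, the gene most often mutated in that disease, gave 0.20 and -0.04 at its 2 probes and did not pass. Rps26 (-0.02), Rps29 (0.23), Rps7 (0.30) and Rpl35 (0.10) did not pass either.

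Several genes had probes that disagreed. Of the 56 genes 16 had several kept probes, 36 in all. For 5 of these genes the probes had the same sign throughout, and for 11 they had both signs. All probes passed in the same direction for 3 genes, Rpl27a (0.66, 0.65 and 0.42), Rps12 (0.39 and 0.39) and Rps24. Probes passed in opposite directions for 3 genes, Rpl21, Rpl28 and Rpl29. Counted by gene, 26 had a probe called higher, 10 a probe called lower and 23 neither, the 3 genes being counted on both sides.

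One Rpl28 probe was at 11.45, 11.39 and 11.13 with Luc and at 11.93 to 12.26 with knockdown. The other was far dimmer, at 6.06, 5.88 and 5.78 with Luc and at 5.19 to 5.77 with knockdown. The bright probe thus rose by 0.76 (SE 0.122) while the dim one gave -0.47 (SE 0.122), and the groups did not overlap at either. Rpl29 gave 0.58 (SE 0.162) and -0.71 (SE 0.202), the latter with overlapping groups. Rpl21 gave -0.87 (SE 0.159) and -0.59 (SE 0.188) at 2 probes, while the third probe was higher but detected on 0 of 3 Luc arrays, which leaves no fold to give. Its fall was deepest at a probe at 6.22, 6.15 and 5.73 with Luc and at 4.99 to 5.57 with knockdown, and turned to 0.199 with median scaling over all probes. Ribosomal protein genes have many pseudogene copies, and probe sequences, which would show cross-hybridisation, were not used here.

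**Figure D3:**
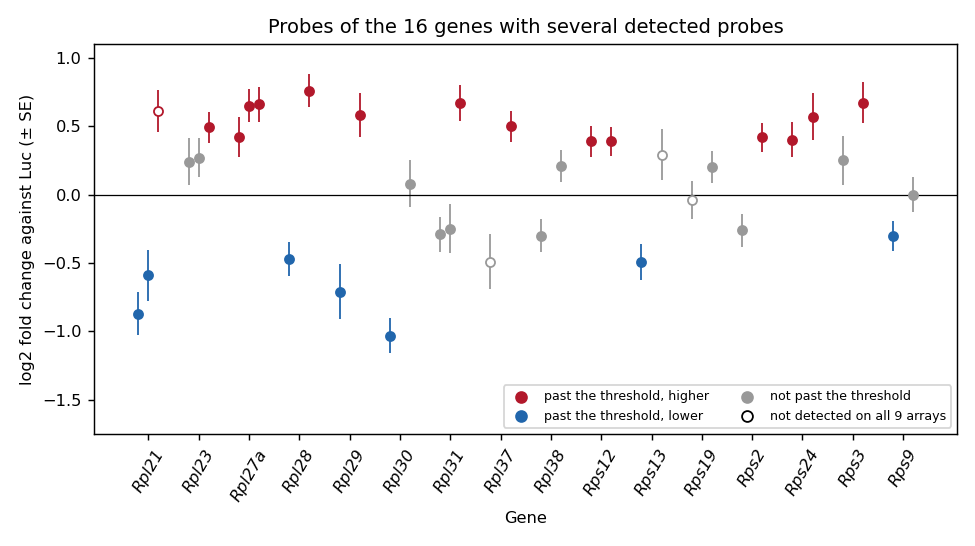
Log2 fold change, both hairpins against Luc, of every kept probe of the 16 genes with several kept probes; open circles are probes not detected on all 9 arrays. Probes of Rpl21, Rpl28 and Rpl29 passed on both sides of 0, while those of Rpl27a, Rps12 and Rps24 all passed above 0.

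Each hairpin alone gave a similar balance, although both comparisons share the same Luc arrays. With hairpin 94 against Luc 27 members rose (35.5%) and 7 fell (9.21%), against 20% and 12.3% of all probes (32.4% in either direction), with a median of 0.30 (0.10 over all probes). The largest rises were in Rpl26 (1.42), Rpl32 (1.20), Rpl12 (1.09), Rps16 (1.03) and Rps10 (1.00), and the deepest falls in Rpl30 (-1.08), Rpl29 (-0.86), Rpl36al (-0.80), Rpl21 (-0.78) and Rps13 (-0.53). With median scaling over all probes these 5 falls turned to 0.242, 0.185, 0.543, 0.281 and 0.914. With hairpin 97 against Luc 25 members rose (32.9%) and 10 fell (13.2%), against 20.6% and 12.3% of all probes, with a median of 0.22 (0.11 over all probes). Rpl26 (1.44), Rpl7a (1.14), Rpl12 (1.12), Rps21 (1.12) and Rps16 (1.01) led the rises. The deepest falls were in Rpl3l (-1.21), Rpl30 (-0.98), 2 probes of Rpl21 (-0.95 and -0.72) and Rpl36al (-0.88), which turned to 0.194, 0.408, 0.116, 0.484 and 0.473 with median scaling over all probes. The count of members called lower went to 4 for hairpin 94 without its array 3 and to 6 for hairpin 97 without its array 5. Single calls were lost too. With hairpin 94, Rpl29 lost its call without hairpin 94 array 2 or 3 (adjusted p up to 0.06746 by limma) and Rps13 without Luc array 2 or hairpin 94 array 1 or 3 (up to 0.06692). With hairpin 97, the Rpl21 probe at -0.72 lost its call without Luc array 1 or 3 or any 1 of the hairpin 97 arrays (up to 0.09348).

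The hairpins themselves differed at 1 member, Rpl3l. Rpl3l is the paralog of Rpl3 that is made in heart and skeletal muscle, and it lies at chr17:24727826-24736143. Its probe was at 7.26, 7.36 and 7.1 on Luc arrays, at 6.93, 7.02 and 7.29 with hairpin 94 and at 6.13, 6.13 and 5.83 with hairpin 97. The hairpin 94 arrays overlapped Luc, and the hairpin 97 arrays lay below both. Hairpin 97 against hairpin 94 gave -1.05 (SE 0.154, adjusted p = 0.02984 by limma), with 0.139% of all probes called in this comparison, 0.0293% as higher and 0.11% as lower. The call ended when any 1 hairpin array was left out, with adjusted p of 0.1168 to 0.2169, although the value stayed below 0.

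For most other members the hairpin arrays were close. The difference was within 0.3 of 0 for 68 of 76 probes, with a median of -0.05 and a median SE of 0.148, and by limma 1 was higher and 5 were lower with hairpin 97 at an unadjusted p under 0.05, or 7.89% of members against 8.55% of all probes. Between the hairpins the other measured paralogs, Rpl7l1 (0.45), Rpl22l1 (0.06), Rps27l (-0.15) and Rpl36al (-0.08), gave no call, although the hairpin 97 arrays of Rpl7l1 all lay above those of hairpin 94, the largest positive difference among the members. With both hairpins against Luc, 0 of 5 paralog probes rose and 2 fell, against 25% and 15.2% of all probes. The falls were in Rpl36al and Rpl3l (-0.68, SE 0.133). With median scaling over all probes Rpl36al turned to 0.508 and, with hairpin 97 alone, Rpl3l to 0.194.

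Genes that work with ribosomal proteins were called at shares near those of all probes, of which 25% were higher and 15.2% lower. Of 14 measured genes of other mRNAs with a TOP tract, 9 of 30 probes rose and 3 fell, with a median of 0.09. Eif3a, a subunit of an initiation factor, rose by 1.36 (SE 0.132, adjusted p = 0.0001267 by limma) at the probe detected on all Luc arrays, and 2 probes of Eef1b2, an exchange factor of elongation factor 1, rose by 0.83 and 0.73, while its other probe gave -0.34 and did not pass. Eef2, the factor that moves the ribosome along the mRNA, gave -1.0 and -0.67 at the 2 probes that passed, and Eef1g gave -0.43. Of 21 genes of ribosome assembly and export, 8 of 30 probes rose and 4 fell, with a median of 0.19. Ubtf, which directs RNA polymerase I to ribosomal DNA, rose at both probes (1.24 and 0.44), and Nop10, of the pseudouridylation particles, by 0.99. Eif6, which keeps new 60S subunits from joining 40S too early, gave -0.73 (adjusted p = 0.0007717 by limma), and Nmd3, the export adaptor of the 60S subunit, -0.55.

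Of 10 genes of the signalling list 2 of 15 probes rose and 2 fell, which is no more than the share of all probes, with a median of -0.08. Mtor itself had a probe in each direction (0.52 and -0.74). Mdm2 gave -0.70 at the probe that passed and -0.24 at the other. With hairpin 97 alone 2 of the 15 probes rose and 4 fell, against 20.6% and 12.3% of all probes. Both Mdm2 probes were among those 4 (-0.79 and -0.37). Larp1 gave 0.72 at a probe detected on 1 of 3 Luc arrays, and -0.18 and -0.04 at the others, which did not pass. Myc gave -0.08 and did not pass. In the same comparison all 5 genes of the neutrophil list rose, with a summed level of 4079 to 4677 on Luc arrays, 8871 to 9306 with hairpin 94 and 8499 to 10380 with hairpin 97. The summed level of the 4 monocyte and macrophage genes was 1466 to 1759, 2346 to 2892 and 2236 to 2462 in the same order. Most of that sum is Ly6c1, the 1 of them that passed (0.68), while Csf1r gave -0.32, Cd14 0.29 and Adgre1 0.33. That of the list for the sorted leukemia cells was 4898 to 5731, 9428 to 9761 and 6322 to 7194. Of the 20 probes of this list 9 rose and 0 fell, against 25% and 15.2% of all probes. Most of the sum is Mpo, whose 4 probes rose by 0.45 to 1.27. With hairpin 97 alone the Mpo probes gave 0.06 to 0.93, and only the one at 0.93 passed. Fcgr3 (1.12), Fcgr2b (0.81 and 0.40), Spi1 (0.76) and Cd33 (0.37) also rose in the comparison of both hairpins against Luc. Further probes of Fcgr2b and Cd33 did not pass. The Cd33 probe gave 0.60 with hairpin 94 alone and passed, and 0.14 with hairpin 97 alone, which did not pass. Spi1 gave 0.76 and 0.75 with the single hairpins and passed with neither (adjusted p = 0.08472 and 0.08863 by limma). The Fcgr2b probe at 0.40 did not pass with hairpin 94 alone (0.37). The Hoxa9 probes gave -0.29 and -0.18, Kit -0.32 and 0.24 and Meis1 -0.45 and 0.24, none of which passed with both hairpins. The Kit probe at -0.32 passed as lower with hairpin 97 alone (-0.48, adjusted p = 0.0489 by limma). The Meis1 probe at 0.24 passed as higher with hairpin 94 alone (0.41, adjusted p = 0.04418 by limma). Their part in the changes of the ribosomal protein probes was not tested.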

How the data were processed

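Biotin-labelled total RNA of 9 samples was hybridised to Illumina bead arrays, per the labels' protocols. For every array the authors deposited an average bead intensity and a detection p-value of each probe, per the file headers. They also deposited a series matrix of log2 values, with a median of 6.612 in each column, in the rank order of the signals. Its scale was worked out from the values, and the software behind it is not given in the sources used here. No slide or scan date is given either, so no batch was tested.

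Groups came from the titles. Intensities were background corrected, quantile normalized and put on the log2 scale by the neqc function (limma 3.58.1, R 4.3.3, offset 16, negative controls inferred from the detection p). Probes with a detection p under 0.05 on at least 3 arrays were fitted with 1 mean per group over all 9 arrays and eBayes, and p was adjusted over all 13641. The number of arrays limits the precision. The fit was tested on simulated data. Alternatives changed the scaling, background correction, filter, probe choice, covariate, replicate block and arrays included. Gene symbols came from the platform annotation (34885 probes with 1 symbol, 18 with several, 10378 with none listed), and all 96 member probes matched the gene table of GRCm38.p6. Start sequences are from RefSeq on the same assembly. Summed marker levels are sums of normalized values on the linear scale.

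The members and lists were chosen with earlier results of these data known. Probes named were the 10 largest rises and falls in the main comparison with all knockdown arrays on one side of Luc, the 5 largest in the others, genes whose probes passed in opposite directions, and the members of the paralog, MDM2 and stalk lists. Other genes named were chosen after their values were seen. Of the members not kept, 10 probes were detected on 0 arrays and 10 on 1 or 2.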

Additional observations from a re-analysis of the deposited data

Results flagged for a closer look

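The hairpins were compared with each other at every member, and 1 differed in that test. The Rpl3l probe was lower with hairpin 97 than with hairpin 94 by a log2 difference of -1.05 (SE 0.154, adjusted p = 0.02984 by limma), with all 3 hairpin 97 arrays below all 3 hairpin 94 arrays. Against Luc the value was -0.16 for hairpin 94 and -1.21 for hairpin 97. No group had enough arrays to look for single outlying samples.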

How the results depend on the processing

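Counts are members called higher and lower in limma, followed by the median log2 fold change, for both hairpins, hairpin 94 and hairpin 97 against Luc. With median scaling over all probes they were 71, 0 and 1.6, then 71, 0 and 1.564, then 68, 0 and 1.556, with 0 lower between the hairpins. Of all probes 72.9%, 68.5% and 69% were called higher against Luc under this scaling, and 0.103%, 0.088% and 0.0806% lower. With scaling over commonly detected probes (seen by every array) the lower calls were 21, 20 and 23 and the medians 0.164, 0.149 and 0.099. Of all probes 60.4%, 56.1% and 57.6% were called lower there. The medians were 0.183, 0.216 and 0.148 without background correction (11 lower for hairpin 94, against 13.7% of all probes). They were 0.177, 0.179 and 0.141 with the series matrix values (11 lower for hairpin 94, against 13.5% of all probes). Without a filter on dim probes they were 0.129, 0.108 and 0.101 (6 lower for hairpin 97, against 3.22% of all probes, and 0 between the hairpins). With probes averaged per gene, 5 were lower (against 14.8% of all genes) and the median was 0.184 for both hairpins. For hairpin 94, 4 were lower (against 11.8% of all genes), and the median was 0.15 for hairpin 97. With only the 2 compared groups 6 were lower for hairpin 97, against 10.5% of all probes. With each array's detected-probe count as covariate, 0 were called in any comparison, as were 0 of all probes in those against Luc. That count did not overlap between Luc and knockdown arrays, so the fit cannot separate it from the knockdown. The cause of these shifts was not tested. Cyclic loess, the brightest probe per gene, and probes detected on all 9 arrays moved no count by over 1.5 times.

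The probes named as lower turned above 0 with median scaling over all probes. The values were 0.325 for Rpl30, 0.199 for Rpl21, 0.508 for Rpl36al, 0.88 for Rpl22, 0.966 for Rps13, 0.609 for Rpl28, 0.814 for Rpl27 and 0.853 for Rps9 with both hairpins. With hairpin 94 they were 0.242 for Rpl30, 0.185 for Rpl29, 0.543 for Rpl36al, 0.281 for Rpl21 and 0.914 for Rps13. With hairpin 97 they were 0.194 for Rpl3l, 0.408 for Rpl30, 0.116 and 0.484 for Rpl21 and 0.473 for Rpl36al. The Rpl3l difference between the hairpins lost its call with this scaling (adjusted p = 0.05769 by limma), without a filter (adjusted p = 0.05899) and with the covariate (adjusted p = 0.05024).

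Leaving out 1 array at a time gave 26 to 31 higher, 9 to 10 lower and medians of 0.227 to 0.281 for both hairpins. It gave 21 to 30 higher, 4 to 7 lower and 0.27 to 0.303 for hairpin 94, and 17 to 25 higher, 6 to 9 lower and 0.189 to 0.276 for hairpin 97. Between the hairpins it gave 0 to 1 lower. The lower calls fell to 4 for hairpin 94 without its array 3 and to 6 for hairpin 97 without its array 5.

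Luc and hairpin 94 share replicate numbers. Deviations of same-numbered arrays correlated weakly, at 0.0678, 0.0486 and 0.141. The highest correlation was with the same-numbered array for replicates 2 and 3 but not for replicate 1. The numbers were not taken to pair the samples, although such weak values cannot exclude a pairing. With the replicate block 16 members were higher and 4 lower for hairpin 94, against 12.1% and 6.85% of all probes. Luc and hairpin 97 share no numbers. Dim probes limit what can be read, since 6 kept members were missed on at least 1 Luc array.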
